A study of Mus musculus with 12 samples.

Results

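Chemokines and their receptors were followed in the dermis of newborn mice, across 2 body sites and 2 ages. The set held every probe set of the array annotated to exactly 1 gene whose symbol starts with Ccl, Cxcl, Ccr, Cxcr, Cx3cl, Cx3cr, Xcl, Xcr or Ackr and continues with a number. It came to 86 probe sets for 54 genes, of 45037 probe sets without controls and 18193 genes named by a probe set of their own. The 54 genes were 33 ligands, 17 signalling receptors and 4 atypical receptors, and 20 of them had more than 1 probe set. A further 4 probe sets named several genes together and were not used: 2 for Ccl27a and Ccl27b, 1 for the Ccl21 copies and 1 for Ccl19. Ccl21a and Ccl19 therefore have no value here.

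The data were 12 Affymetrix MG430.2A arrays in 4 groups of 3, labelled P5 tail, P5 back, P1 tail and P1 back, from C57Bl6/CBA F1 mice 5 days or 1 day after birth with no genetic change or treatment. RNA came from cell suspensions of the whole dermis, not from sorted cells, and in such bulk samples fewer cells of a type and less RNA per cell cannot be told apart. As described for P1, tail skin was loosened in EDTA and back skin in a dispase-trypsin solution before the dermis was peeled off, so body site and solution cannot be told apart. The study describes its RNA as taken from triplicate mice, but the labels do not tie an array to a mouse, and p-values measure only the spread between these arrays. Each value is a log2 intensity after RMA normalisation, centred on the median of its probe set over the 12 arrays: 0 is the middle array, 1 is 2-fold above it, and the level of one gene cannot be set against another's. For the same reason no signal over background can be read, and a member that is off in every array cannot be told from a steady one.

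The site labels did not match the positional genes. Hoxd11, a posterior gene of the Hox clusters, was at -1.18, -1.54 and -1.87 in the arrays labelled P5 tail and 1.83, 1.91 and 1.52 in those labelled P5 back, and at -1.84, -1.93 and -1.52 in P1 tail, against 1.18, 1.33 and 1.46 in P1 back. Of the 10 posterior Hox genes measured, 7 were lower in the arrays labelled tail at P5 and 7 at P1. Of the 9 trunk Hox genes measured, 4 were higher there at each age, led by Hoxc8, by 2.93 at P5 and 2.78 at P1 (log2). Hoxb9 was lower there at both ages, and the other 4 trunk genes did not pass. Adipoq, which encodes the fat cell hormone adiponectin, averaged 5.23 higher in P1 tail than in P1 back, and Krt2, a keratin abundant in tail scale epidermis, differed by -7.57. The labels were kept as given and no arrays were exchanged, and "tail" and "back" below mean arrays so labelled. The study describes fat-related genes as higher in back dermis, so the directions between sites given here run opposite to its own. Age differences compare arrays of 1 label, so only the name of the site in them depends on the labels. Among the arrays, P5 tail 2 stood apart, with a residual SD of 0.325 over all probe sets against 0.123 to 0.258 in the others.

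Chemokines are small secreted proteins that guide moving cells through G protein-coupled receptors. CXC ligands with an ELR motif draw neutrophils, inflammatory CC ligands draw monocytes, and homeostatic members such as Cxcl12, Cxcl14 and Ccl27a are made by resident skin cells. Atypical receptors bind chemokines without the usual G protein signal and take them up, which removes or redistributes the ligand.

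The members with a probe set that passed with age were Cxcl1, Cxcl2, Cxcl10, Cxcl15, Cxcl16, Ccl3, Ccl7 and Ackr4. Those with a probe set that passed between the sites were Cxcl5, Cxcl14, Cxcl16, Ccl7, Ccl27a, Cxcr4 and Ackr4. At an adjusted p under 0.05 in limma, 15 probe sets of 12 genes passed in at least 1 of 5 comparisons, and 71 probe sets of 42 genes passed in none. The ligands gave 10 of their 33 genes, the receptors 1 of 17 (Cxcr4) and the atypical receptors 1 of 4 (Ackr4). The share of all probe sets or genes that passed in at least 1 comparison was not computed. These counts therefore describe the members only, and the share of all probe sets is given below for each comparison. The median range of a member over the 12 arrays was 0.78, and that of all probe sets was 0.77 (log2).

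Between P5 and P1 in tail, 8 members passed, beside 3.12% of all probe sets. They were 3 higher and 5 lower, where 1.77% and 1.35% of all probe sets passed. In back 6 passed, beside 2.30% of all, and all 6 were lower, where 1.24% of all probe sets were higher and 1.05% lower. Between tail and back at P5 6 passed, beside 4.76% of all, with 4 higher and 2 lower where 2.94% and 1.82% of all passed. At P1 4 passed, beside 2.72% of all, and all 4 were lower in tail, where 1.57% of all probe sets were higher and 1.15% lower. Groups that do not overlap were common among all probe sets, at 17.1% with age in tail, 24.8% with age in back, 18.2% between the sites at P5 and 27.7% at P1. The interaction of site and age, which is the difference between sites at P5 minus that at P1, gave 1 member beside 1.73% of all. An unadjusted p under 0.05 was reached by 19 members between sites at P5, beside 17.9% of all probe sets, and by 20 at P1, beside 12.6%. With age it was reached by 21 in tail, beside 18.0%, and by 20 in back, beside 11.0%. Of the 8 members called with age in tail, the Ackr4 probe set alone passed with array weights and with the tail arrays fitted by themselves. The 5 comparisons share arrays, so each is described by its own values.

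**Figure D1:**
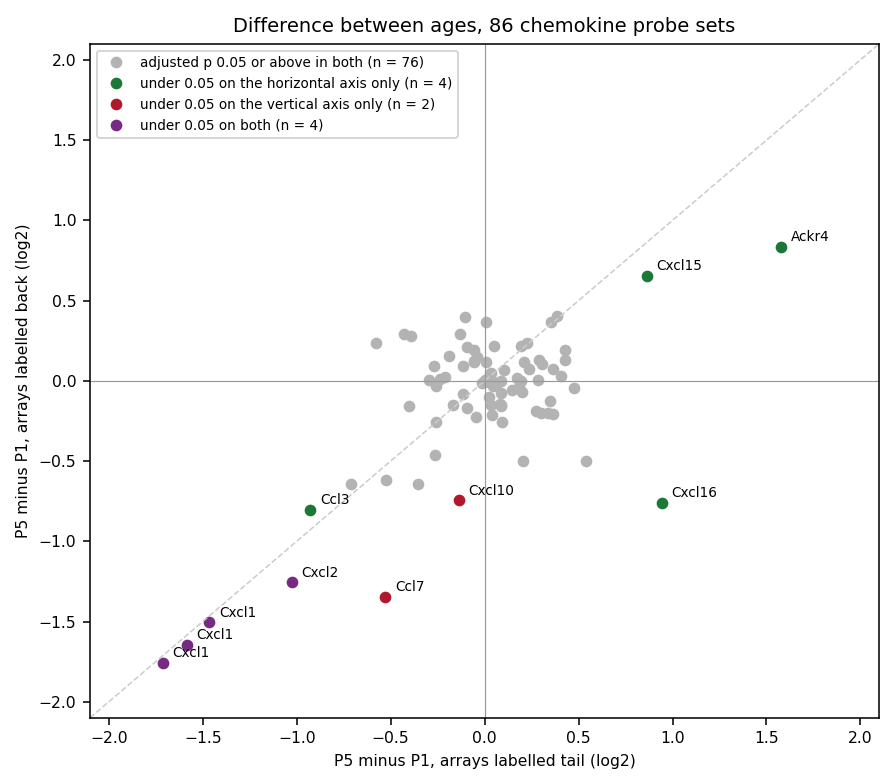
Each point is 1 of the 86 chemokine probe sets, with its P5 minus P1 difference in arrays labelled tail (horizontal axis, log2) and in arrays labelled back (vertical axis, log2); colours show the adjusted p of limma and the dashed line marks equal differences. The 3 Cxcl1 probe sets and Cxcl2 lie at the lower left on both axes, and 76 probe sets pass in neither.

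The largest falls with age of the set were those of Cxcl1, a neutrophil-attracting CXC ligand. Its group did not move as 1, with a median age difference of 0.030 in tail and -0.50 in back over 9 probe sets. Cxcl1, a main neutrophil attractant of mouse skin, was read by 3 probe sets that all fell with age at both sites. On 1457644_s_at it was at -0.86, -0.66 and -1.15 in P5 tail, against 0.84, 1.25 and -0.00043 in P1 tail. The P1 tail values spread widely, with array 6 close to the P5 back arrays, but no P5 tail array reached a P1 tail array. In back it was at -0.87, -0.15 and 0.00043 in P5, against 1.21, 1.48 and 1.23 in P1. The groups did not overlap here either, and the 3 P1 back arrays lay close together. The difference was -1.58 ± 0.28 (SE) in tail (adjusted p = 0.0083, limma) and -1.65 ± 0.28 (SE) in back (adjusted p = 0.0073), so Cxcl1 was 3-fold and 3.13-fold lower at P5. The other 2 probe sets gave -1.71 and -1.47 in tail and -1.76 and -1.51 in back. The suffixes of 1457644_s_at and 1441855_x_at mark shared sequence, and that of 1419209_at does not. The tail call of 1457644_s_at was lost with array weights (-1.28, adjusted p = 0.16) and with the tail arrays fitted by themselves (adjusted p = 0.051). No single array that was left out removed a call of this probe set, whereas 1419209_at lost its tail call without P5 tail 2 or 4 or P1 tail 4 or 5 (-1.78 to -1.39) and its back call without any 1 of 5 back arrays (-1.95 to -1.33, P5 back 3 excepted), and 1441855_x_at without P1 tail 4 (-1.43), P5 back 1 (-1.23) or P1 back 5 (-1.40). Between sites, 1457644_s_at differed by -0.55 at P5 (adjusted p = 0.34) and -0.61 at P1 (adjusted p = 0.4), with overlapping arrays.

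Cxcl2, the next ligand of the same receptor Cxcr2, was at -0.19, -0.37 and -0.92 in P5 tail, against 0.74, 0.72 and 0.14 in P1 tail. In back it was at -0.32, -0.18 and -0.14 in P5, against 0.58, 1.42 and 1.12 in P1. No P5 array reached a P1 array at either site, and the differences were -1.03 ± 0.23 (SE) in tail (adjusted p = 0.032, limma) and -1.26 ± 0.23 (SE) in back (adjusted p = 0.012). The tail call was lost without P5 tail 4 (-0.81), P1 tail 4 (-0.92) or P1 tail 5 (-0.93), and the back call without P5 back 2 (-1.27), P1 back 5 (-1.07) or P1 back 6 (-1.22). Cxcl5, a ligand of the same receptor made largely by epithelial cells, passed between sites at P1 and did not pass with age. It was at 0.018, -0.12 and -0.17 in P5 tail, against 0.41, 0.24 and -0.018 in P5 back, and at -0.43, -0.21 and -0.25 in P1 tail, against 1.22, 0.33 and 0.58 in P1 back. At P1 it was 2-fold lower in tail (-1.0 ± 0.19 (SE), adjusted p = 0.013), with P1 back array 1 well above its fellows, and at P5 the difference was -0.30 (adjusted p = 0.45). The P1 call was lost without P1 tail 4 (-0.94) or P1 tail 6 (-1.03). With age Cxcl5 differed by 0.20 in tail and by -0.50 in back (adjusted p = 0.31 in back, limma). Its interaction was 0.70 (adjusted p = 0.29).

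Cxcl15, known in the mouse as a neutrophil attractant of the lung, ran the other way with age. Its probe set 1456428_at was at 0.013, -0.070 and -0.00017 in P5 tail, against -1.08, -0.55 and -1.01 in P1 tail, and rose by 0.86 ± 0.20 (SE) (adjusted p = 0.036, limma). The second probe set, 1421404_at, differed by 0.43 (adjusted p = 0.31). Over both probe sets the age difference in back ran from 0.19 to 0.65 and the P1 site difference from -0.77 to -0.41, none passing. Averaged to the gene, Cxcl15 was lower in tail at P1 without overlap (-0.59, adjusted p = 0.032, limma). The averaged age differences were 0.64 in tail (adjusted p = 0.019) and 0.42 in back (adjusted p = 0.14). The call of 1456428_at was lost without P5 tail 2 (0.85), P5 tail 4 (0.85), P1 tail 4 (0.76) or P1 tail 6 (0.80). Cxcl3, a further Cxcr2 ligand, differed by 0.48 in tail (adjusted p = 0.11) and by -0.045 in back (adjusted p = 0.98). Cxcr2, the receptor on neutrophils, stayed between -0.30 and 0.29 in the 12 arrays, and its age difference was 0.030 in tail and 0.043 in back. None of 10 neutrophil genes measured, among them S100a8 and S100a9, passed in any comparison.

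**Figure D2:**
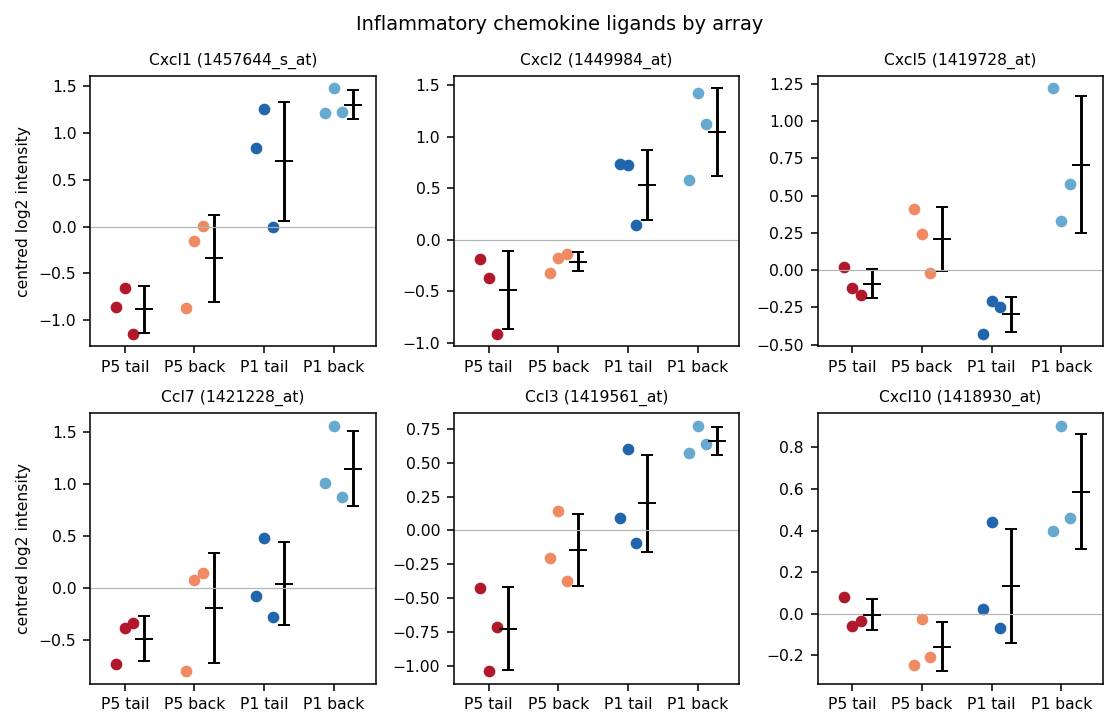
Centred log2 intensity (vertical axis) of 6 inflammatory ligands in the 12 arrays, grouped as P5 tail, P5 back, P1 tail and P1 back; points are arrays, and the bar beside them is the group mean with its SD (n = 3). For Cxcl1 and Cxcl2 all P5 arrays lie below the P1 arrays of the same site, and for Ccl7 and Cxcl5 the P1 back arrays stand highest, with 1 P5 back array of Cxcl5 among them.

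The genes of these ligands lie close together on chromosome 5, in the RefSeq order Cxcl5, Cxcl3, Cxcl15, Cxcl1 and Cxcl2, and Cxcl10 lies elsewhere on it, next to Cxcl9. The 170 bases before the RefSeq start are shown for the 4 cluster genes with a window and for Cxcl10, because these neighbours moved differently with age and the κB consensus, the binding motif of NF-κB, is a known element of such promoters. Capitals mark matches to that consensus, searched on both strands in the 250 bases before each start. In GRCm38.p6 the windows are chr5:90891075-90891244 for Cxcl1, chr5:90903729-90903898 for Cxcl2, chr5:90785931-90786100 for Cxcl3 and chr5:90794364-90794533 for Cxcl15 on the plus strand and chr5:92348890-92349059 for Cxcl10 on the minus strand, and each sequence runs in the direction of its gene.
Cxcl1: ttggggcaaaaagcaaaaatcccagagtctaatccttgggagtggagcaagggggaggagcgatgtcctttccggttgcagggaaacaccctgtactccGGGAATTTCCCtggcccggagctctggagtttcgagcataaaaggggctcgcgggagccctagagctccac
Cxcl2: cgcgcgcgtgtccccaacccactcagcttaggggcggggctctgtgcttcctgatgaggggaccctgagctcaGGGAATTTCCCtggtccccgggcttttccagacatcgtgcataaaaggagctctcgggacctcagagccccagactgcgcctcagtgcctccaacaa
Cxcl3: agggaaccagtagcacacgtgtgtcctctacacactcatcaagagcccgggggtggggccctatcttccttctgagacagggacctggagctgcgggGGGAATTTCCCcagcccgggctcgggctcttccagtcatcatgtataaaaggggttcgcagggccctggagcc
Cxcl15: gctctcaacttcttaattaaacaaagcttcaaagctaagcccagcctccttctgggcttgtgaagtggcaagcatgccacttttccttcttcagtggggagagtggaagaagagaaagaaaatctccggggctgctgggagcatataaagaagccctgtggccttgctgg
Cxcl10: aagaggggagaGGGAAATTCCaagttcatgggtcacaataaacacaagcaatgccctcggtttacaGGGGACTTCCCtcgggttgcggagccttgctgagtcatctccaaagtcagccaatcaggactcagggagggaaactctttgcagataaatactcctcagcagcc

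Cxcl1, Cxcl2 and Cxcl3 carried the same run of 11 bases, which holds 2 matches overlapping each other, starting 71, 97 and 73 bases before the start. That exact run, on either strand, was present in 14 of 32851 RefSeq promoter windows of this length (0.0426%). Cxcl10 had 3 matches in 2 places, starting 159, 104 and 103 bases before its start, and Cxcl15 had none in its window. Of all 32851 windows, 7.25% held a match to the consensus, and of the 45 windows of the 41 member genes with a window, 11 did. Cxcl1 and Cxcl2 fell with age at both sites and Cxcl3, with the same run, gave the differences above, which did not pass. A match describes the letters of the window and no binding was measured.

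Of the 12 monocyte and macrophage CC members, Ccl7 and Ccl3 passed. Ccl7, a monocyte attractant that binds Ccr2, was at -0.80, 0.073 and 0.15 in P5 back, against 1.01, 1.56 and 0.88 in P1 back. In tail it was at -0.74, -0.38 and -0.34 in P5, against -0.073, 0.48 and -0.28 in P1. The P1 back arrays stood above all 9 others. It fell with age in back (-1.34 ± 0.27 (SE), adjusted p = 0.017, limma) and was lower in tail at P1 (-1.11, adjusted p = 0.044), whereas the age difference in tail was -0.53 (adjusted p = 0.32) and the site difference at P5 -0.29 (adjusted p = 0.61). The interaction for Ccl7 was 0.82 (adjusted p = 0.4), so the effects at the 2 sites were not shown to differ. The Ccl7 call at P1 was lost without any single one of P1 tail arrays 4 and 6 and P1 back arrays 1, 5 and 6, with differences from -1.24 to -0.90, and the age call in back without P5 back 1 (-1.04) or P1 back 5 (-1.14).

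Ccl2, the chief monocyte attractant and a neighbour of Ccl7, was at -0.85, -0.33 and -0.42 in P5 tail, against -0.00083, 0.71 and -0.18 in P1 tail. In back it was at -0.22, 0.00083 and 0.0043 in P5, against 0.54, 0.74 and 0.44 in P1. The ages did not overlap at either site, but the differences of -0.71 in tail (adjusted p = 0.089, limma) and -0.64 in back (adjusted p = 0.17) did not pass. Its receptor Ccr2 was read by 4 probe sets, none of which passed in any comparison. Ccl3, a macrophage product that binds Ccr1, was at -0.43, -1.04 and -0.71 in P5 tail, against 0.093, 0.60 and -0.093 in P1 tail, and fell by 0.93 ± 0.20 (SE) (adjusted p = 0.024), a call lost without P1 tail 4 (-0.98) or P1 tail 5 (-0.73). In back it was at -0.20, 0.14 and -0.38 in P5, against 0.58, 0.77 and 0.64 in P1, again without overlap. The difference of -0.81 in back missed the threshold among probe sets (adjusted p = 0.057). In the fit by gene, which the marker lists use, Ccl3 passed at both sites (adjusted p = 0.016 in tail and 0.036 in back, limma). Ccl6 on 1417266_at differed by -0.65 in back (adjusted p = 0.13). The other members of this group, Ccl4, Ccl5, Ccl8, Ccl9, Ccl12, Ccr1 and Ccr1l1, passed in no comparison. In the macrophage list, 5 of 13 genes measured were lower at P5 in tail (Mrc1, Cd163, Folr2, Csf1r and Msr1), and none passed with age in back. The part of macrophage number in the Ccl3 difference was not tested.

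Cxcl10, an interferon-induced ligand that draws T cells through Cxcr3, was at -0.24, -0.024 and -0.21 in P5 back, against 0.40, 0.90 and 0.46 in P1 back. It fell by 0.75 ± 0.16 (SE) (adjusted p = 0.029, limma), and the call was lost without any 1 of P5 back 1, 2 and 3 and P1 back 5 and 6 (-0.81 to -0.59). In tail it was at 0.079, -0.058 and -0.036 in P5, against 0.024, 0.44 and -0.069 in P1, with overlapping arrays and a difference of -0.14 (adjusted p = 0.71). Cxcl9, which shares the receptor, differed by 0.023 and 0.12 in back on its 2 probe sets, and Cxcl11 by 0.29 and 0.15. Cxcr3 differed by -0.15. Of 16 interferon response genes measured, only Irf1 passed with age in back, where it was lower.

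Several genes that are induced quickly in stressed or stimulated cells were lower at P5 than at P1 in back, and few of them in tail. Of 34 inflammatory inducers and NF-κB targets measured, 11 were lower at P5 than at P1 in back. Il6 differed most, at -1.90, with Nfkbia at -1.13 and Il1b among the smallest at -0.52. The median of the list was -0.37, against 0.0067 for all genes. In tail, where Cxcl1 and Cxcl2 also fell, 2 of them were lower and 1 higher, and the median was 0.0058, against 0.039 for all genes. Between sites at P1, 8 were lower in tail. From the largest difference down they were Il33, Icam1, Sele, Vcam1, Tnfaip3, Nfkbia, Tnf (-0.65) and Il1b (-0.52). Of 20 immediate early genes, which respond to handling as well as to growth signals, 12 were lower at P5 in back, with a list median of -0.95. In tail none was lower and 1, Egr2, was higher, with a list median of 0.13. Atf3 was at -1.47, -0.89 and -0.94 in P5 back, against 1.63, 1.87 and 1.78 in P1 back, and in tail at -0.058, 0.12 and 0.058 in P5, against -0.19, 0.69 and -0.76 in P1. The P1 back arrays held the highest Atf3 values, as they did for Ccl7. The mean of the immediate early list was between -0.62 and -0.36 in P5 back and between 0.53 and 0.67 in P1 back, whereas the tail arrays ranged from -0.13 to 0.26 at P5 and from -0.40 to 0.13 at P1. Among all genes, 4.25% passed with age in back and 5.30% in tail.

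The lists differed between the arrays in other cells as well. The mean of 11 keratinocyte genes was between 1.02 and 1.33 in the P1 back arrays, and at most 0.32 in all 9 others. Of these genes, 8 were lower at P5 in back and 3 were lower in tail at P1, Krt2, Krt16 and Krt5. The part of digestion, epidermal cells or inducible genes in the chemokine differences was not tested.

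Cxcl14, a CXC ligand made at rest by skin epithelium and fibroblasts, was the one member that passed between sites at both ages. Ccl27a, Cxcr4 and Ackr4 (1426139_a_at) also parted the sites without overlap at both ages but passed at P5 only. For Cxcr4 and this Ackr4 probe set that contrast depended on the fit, as given below. On 1418457_at Cxcl14 was at -0.25, -0.90 and -1.0 in P5 tail, against 0.31, 0.38 and 0.25 in P5 back. At P1 it was at -1.01, -0.57 and -0.83 in tail, against 0.42, 0.56 and 0.42 in back. All 6 tail arrays were below 0 and all 6 back arrays above it, with P5 tail array 2 the nearest. Cxcl14 was lower in tail by -1.03 ± 0.18 (SE) at P5 (adjusted p = 0.0051, limma) and -1.27 ± 0.18 (SE) at P1 (adjusted p = 0.0017), which are 2.04-fold and 2.41-fold. The second probe set, 1418456_a_at, gave -1.02 (adjusted p = 0.0098) and -1.27 (adjusted p = 0.003). With age it did not pass at either site, at 0.086 in tail and -0.15 in back. No single array that was left out removed a Cxcl14 call, but 1418456_a_at lost its P5 call when the P5 arrays were fitted by themselves (adjusted p = 0.074). Both probe sets lost their calls at both ages when the replicate number was fitted as a block.

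**Figure D3:**
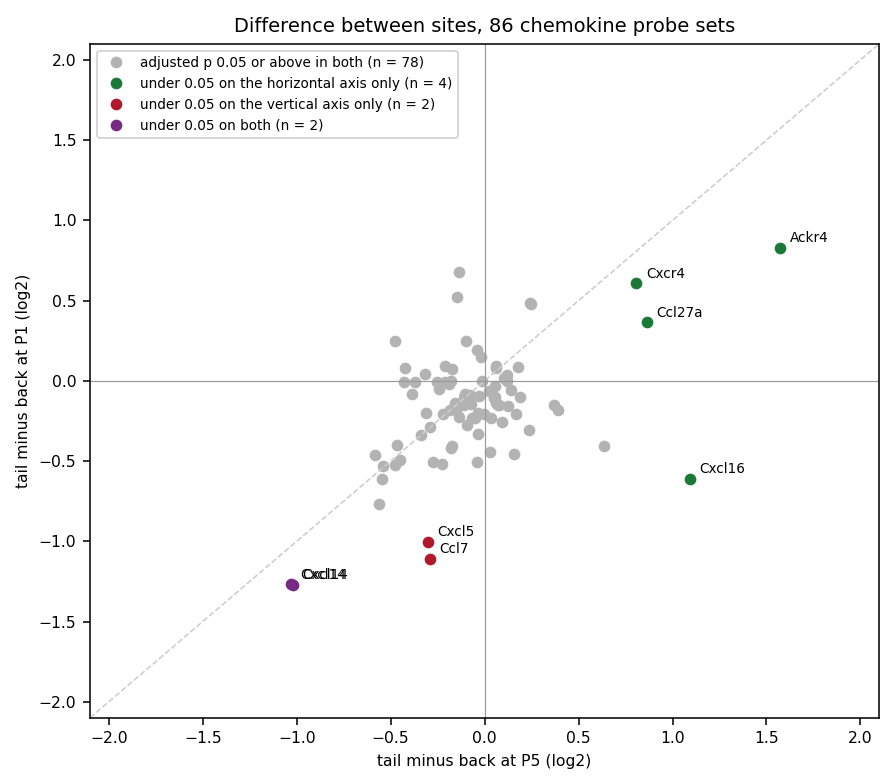
Each point is 1 of the 86 chemokine probe sets, with its tail minus back difference at P5 (horizontal axis, log2) and at P1 (vertical axis, log2); colours show the adjusted p of limma and the dashed line marks equal differences. Both Cxcl14 probe sets lie at the lower left and pass on both axes, and Cxcl16 lies at the lower right, above 0 at P5 and below 0 at P1.

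Ccl27a, the keratinocyte chemokine that draws skin-homing T cells through Ccr10, was at 0.49, 0.48 and 0.51 in P5 tail, against -0.24, -0.43 and -0.44 in P5 back. At P1 it was at 0.12, 0.36 and 0.089 in tail, against -0.33, -0.093 and -0.089 in back. The sites did not overlap at either age, and the difference was 0.86 ± 0.12 (SE) at P5 (adjusted p = 0.0013, limma) and 0.36 at P1 (adjusted p = 0.18). The interaction was 0.50 (adjusted p = 0.22). Its probe set carries the suffix by which the array design marks probes that can bind other transcripts, and the Ccl27 genes exist in near-identical copies, so the copy measured is uncertain. At P5 the keratinocyte list had 4 genes higher in tail (Flg, Lor, Krt14 and Krt5) and Krt2 lower, of 11 measured. Ccr10 differed by -0.027 between the sites at P5, and the related epithelial ligand Ccl28 passed in no comparison on its 3 probe sets.

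Cxcl16, a membrane-bound ligand of Cxcr6 that also takes up oxidised lipids, was the single member whose interaction of site and age passed, on 1 of its 2 probe sets. On 1449195_s_at it was at 0.96, 0.35 and 0.19 in P5 tail, against -0.47, -0.84 and -0.48 in P5 back. At P1 it was at -0.74, 0.017 and -0.61 in tail, against -0.017, 0.18 and 0.33 in back. At P5 every tail array exceeded every back array, and at P1 the tail mean was the lower one, with P1 tail array 5 overlapping the back arrays. The difference was 1.09 ± 0.22 (SE) at P5 (adjusted p = 0.014, limma) and -0.61 at P1 (adjusted p = 0.24). The interaction was 1.70 ± 0.32 (SE) (95% interval 1.02 to 2.39, adjusted p = 0.017). With age Cxcl16 rose in tail by 0.94 (adjusted p = 0.038) and differed by -0.76 in back (adjusted p = 0.12). The second probe set, 1418718_at, ran the same way without passing, at 0.64 at P5, -0.40 at P1 and an interaction of 1.04 (adjusted p = 0.11). The suffix of 1449195_s_at marks shared sequence, and without probe sets of such suffixes no member passed in the interaction. The P5 site call was lost without P5 back 2 (0.97) and the age call in tail without P5 tail 2 (0.71), P1 tail 4 (0.80) or P1 tail 6 (0.86). The interaction missed the threshold when P5 back array 2 (1.58), P1 tail array 6 (1.62), P1 back array 5 (1.69) or P1 back array 6 (1.62) was left out. The immediate early list had 7 of 20 genes higher in tail at P5 and 8 lower at P1, and its part in the Cxcl16 difference was not tested. Cxcr6 passed in no comparison on its 2 probe sets.

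Cxcr4, the receptor that holds progenitor and immune cells near Cxcl12, was the only signalling receptor to pass. It was at 0.73, 0.092 and -0.0020 in P5 tail, against -0.25, -0.53 and -0.82 in P5 back. At P1 it was at 0.82, 0.41 and 0.40 in tail, against -0.11, 0.0020 and -0.094 in back. No tail array fell among the back arrays of its age, and P5 tail array 2 and P1 tail array 4 were the highest. The difference was 0.81 ± 0.20 (SE) at P5 (adjusted p = 0.036, limma) and 0.61 ± 0.20 (SE) at P1 (adjusted p = 0.17). The P5 call was lost without P5 tail array 2 (0.58), P5 back array 2 (0.81) or P5 back array 3 (0.66). It was also lost with array weights (0.65, adjusted p = 0.13) and with the P5 arrays fitted by themselves (adjusted p = 0.15). The P1 difference passed with array weights (0.54, adjusted p = 0.012) and with the P1 arrays fitted by themselves (adjusted p = 0.037). It also passed once P5 tail array 2 was out of the shared spread (adjusted p = 0.043).

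Cxcl12, the fibroblast ligand of Cxcr4 and Ackr3, gave a different answer on each of its 3 probe sets. At P1 the site difference was -0.53 ± 0.15 (SE) on 1417574_at (adjusted p = 0.099, limma), -0.083 on 1439084_at and 0.68 ± 0.21 (SE) on 1448823_at (adjusted p = 0.13). The first of these was at -0.16, -0.73 and -0.42 in P1 tail, against 0.21, 0.0013 and 0.067 in P1 back, with no overlap. The last was at 0.86, 0.18 and 0.31 in P1 tail, against 0.0072, -0.31 and -0.38 in P1 back, again with no overlap but the other way round. Array weights called both readings, still opposite, at -0.52 (adjusted p = 0.0053) and 0.64 (adjusted p = 0.0073), and so did leaving P5 tail array 2 out of the shared spread (adjusted p = 0.048 and 0.037). At P5 all 3 were lower in tail without passing, by -0.54, -0.39 and -0.14. Cxcl17, found in mucosal epithelia, passed in no comparison.

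**Figure D4:**
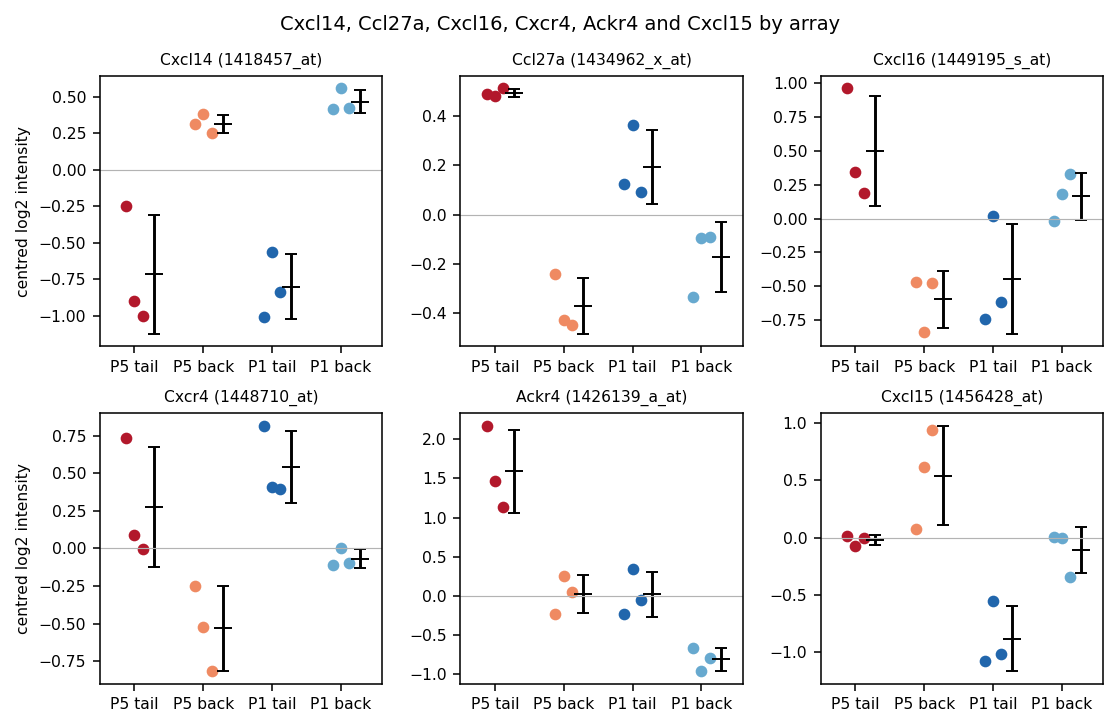
Centred log2 intensity (vertical axis) of Cxcl14, Ccl27a, Cxcl16, Cxcr4, Ackr4 and Cxcl15 in the 12 arrays, grouped as P5 tail, P5 back, P1 tail and P1 back; points are arrays, and the bar beside them is the group mean with its SD (n = 3). For Cxcl14 all tail arrays lie below 0 and all back arrays above it, and for Ackr4 the 3 P5 tail arrays lie above the 9 others.

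Ackr4, the atypical receptor that scavenges Ccl19, Ccl21 and Ccl25, had the widest range of the set, 3.14 over the 12 arrays on 1426139_a_at. It was at 2.17, 1.47 and 1.14 in P5 tail, against -0.23, 0.25 and 0.051 in P5 back. At P1 it was at -0.23, 0.34 and -0.051 in tail, against -0.67, -0.97 and -0.79 in back. The P5 tail arrays were the highest and the P1 back arrays the lowest, with the other 2 groups between them. It was 2.97-fold higher in tail than in back at P5 (1.57 ± 0.23 (SE), adjusted p = 0.0018, limma) and 2.98-fold higher at P5 than at P1 in tail (1.58 ± 0.23 (SE), adjusted p = 0.0025). The same steps at the other age and site were 0.83 between sites at P1 (adjusted p = 0.093) and 0.83 with age in back (adjusted p = 0.099), and the interaction was 0.74 (adjusted p = 0.37). Both the P1 site step and the back age step passed with array weights (adjusted p = 0.0023 for each). They also passed with the 2 groups fitted by themselves (0.024 and 0.01) and with P5 tail array 2 out of the shared spread (0.016 and 0.017).

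The 2 other Ackr4 probe sets parted from it between the sites at both ages and with age in tail. At P1 the site difference was 0.081 on 1437668_at and -0.0096 on 1437669_x_at. At P5 1437668_at was at 0.084, -0.044 and -0.29 in tail, against 0.19, 0.43 and 0.41 in back, a difference of -0.43 ± 0.13 (SE) (adjusted p = 0.079, limma). On 1437669_x_at the difference was -0.37 (adjusted p = 0.18). With age in tail they differed by -0.11 and 0.0093. With age in back all 3 probe sets were higher at P5 without overlap, at 0.83, 0.40 and 0.37, and none passed. Averaged over the 3 probe sets, Ackr4 differed by 0.26 between the sites at P5 (adjusted p = 0.37). The averaged age differences were 0.49 in tail (adjusted p = 0.083) and 0.53 in back (adjusted p = 0.072), with no overlap at either site. The suffix of 1426139_a_at marks probes that several transcripts of 1 gene share, and no transcript was resolved here.

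**Figure D5:**
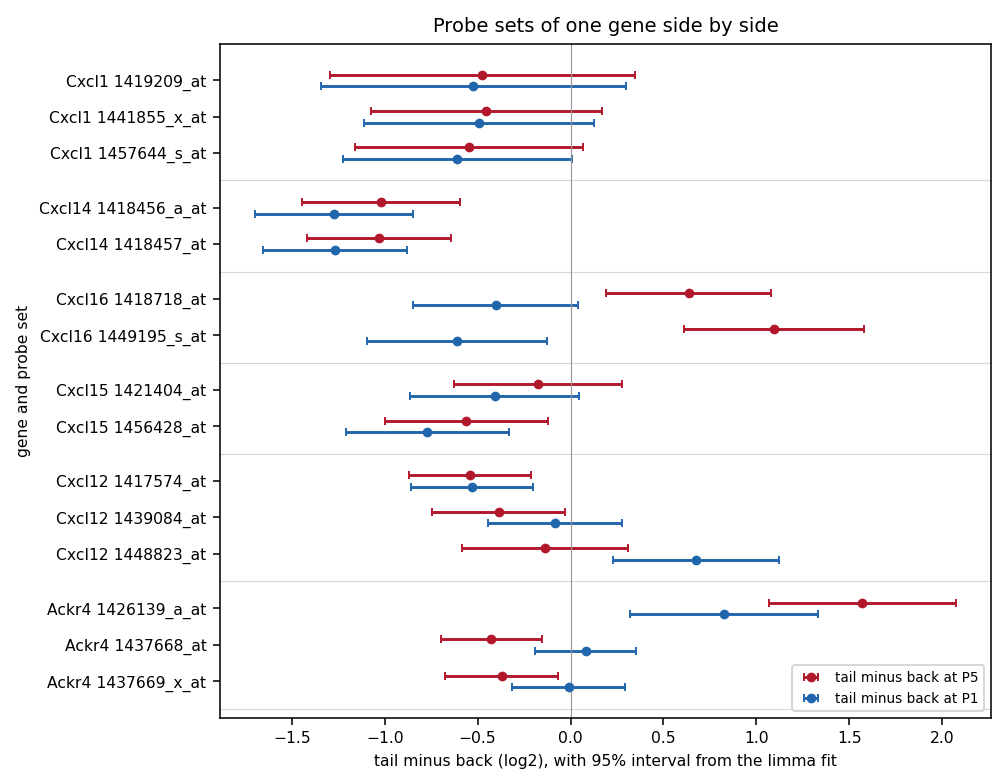
Tail minus back differences (horizontal axis, log2) at P5 and P1 for each probe set of 6 genes (vertical axis), with the 95% interval of the limma fit. The probe sets of Cxcl1 and of Cxcl14 lie close together, whereas those of Ackr4 at P5 and of Cxcl12 at P1 fall on both sides of 0.

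The remaining atypical receptors passed in no comparison. Ackr3, a scavenger of Cxcl12, was at 0.0040, -0.33 and -0.54 in P5 tail, against 0.40, 0.12 and 0.19 in P1 tail. In back it was at -0.65, -0.64 and -0.12 in P5, against 0.25, -0.0040 and 0.19 in P1. The ages did not overlap at either site, and the differences were -0.53 in tail (adjusted p = 0.13, limma) and -0.62 in back (adjusted p = 0.1). Ackr2, which degrades inflammatory CC ligands, differed between the sites at P1 by -0.28, -0.44 and -0.33 on its 3 probe sets, without passing. Ackr1, the endothelial chemokine binder, differed by -0.18 between sites at P5 and -0.18 at P1, with overlapping arrays.

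No gene of lymphocyte and dendritic cell traffic passed, over 14 genes and 20 probe sets. Their differences between the sites ran from -0.24 to 0.39 at P5 and from -0.42 to 0.48 at P1, and with age from -0.40 to 0.40 in tail and from -0.21 to 0.22 in back. The highest of them at P5 was Xcl1, which draws cross-presenting dendritic cells through Xcr1. It was at 0.19, 0.18 and 0.28 in P5 tail, against -0.16, -0.13 and -0.22 in P5 back, a difference of 0.39 ± 0.12 (SE) (adjusted p = 0.11, limma), while Xcr1 differed by 0.057. Ccl20, an epithelial ligand, differed by 0.23 at P5 and its receptor Ccr6 by 0.057. Ccr7, which leads dendritic cells to lymph nodes, differed by -0.24 (95% interval -0.56 to 0.079). The 3 eosinophil members Ccl11, Ccl24 and Ccr3 did not pass, and Ccl11, the fibroblast eotaxin, differed with age by 0.38 in tail and 0.40 in back, with no overlap at either site. The fractalkine pair did not pass either, with site differences at P1 from -0.50 to -0.07 over the 6 probe sets of Cx3cl1 and Cx3cr1.

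Downstream of the receptors, 31 genes of chemokine signal transduction were measured. Of these 3 passed between the sites at P5, beside 6.91% of all genes, and 2 at P1, beside 3.97%. With age 1 passed in tail, beside 5.30% of all genes, and 2 in back, beside 4.25%. The genes that passed at P5 were Elmo1 and Stat3, higher in tail, and Prkcb, lower. Rgs1 and Rgs16, which shorten G protein signals and are themselves induced in activated cells, were lower at P5 in back, by -1.42 (adjusted p = 0.025, limma) and -1.02 (adjusted p = 0.0063). Rgs16 was at -0.47, -0.033 and -0.026 in P5 back, against 0.67, 1.07 and 0.79 in P1 back. As for Ccl7, its P1 back arrays stood above all others.

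Cell markers give the makeup beside these results. Mast cell genes were lower in tail, 8 of 10 at P5 and 6 of 10 at P1, with the list mean between -1.26 and -0.95 in P5 tail, against 0.090 to 0.19 in P5 back. With age, 5 of the 10 were lower at P5 in tail and 2 in back, and the list mean was between -0.53 and 0.13 in P1 tail and between 0.45 and 0.73 in P1 back. Adipocyte genes were higher in tail, 3 of 9 at P5 and 9 of 9 at P1. With age, 6 of the 9 were lower at P5 in tail, where the list mean ran from 0.054 to 0.40 in P5, against 1.07 to 1.65 in P1. In back 6 of the 9 were higher at P5, and the list mean ran from -0.48 to -0.093 in P5, against -1.27 to -1.18 in P1. Of 13 T and NK cell genes measured, Cd3g and Cd3d were higher in tail at P5, and higher at P5 than at P1 in tail. Of 10 dendritic and Langerhans cell genes, Cd74, Epcam and H2-Eb1 rose with age in tail, and Epcam was higher in tail at P5. Of 13 macrophage genes, Mrc1, Cd163 and Msr1 were lower in tail at P5, and Cd163 was higher there at P1. Of 11 fibroblast genes, 5 were higher and 1 lower in tail at P5, and 2 were higher there at P1. With age 1 fibroblast gene was lower in tail and 1 in back. The part of all these cell types in the site and age differences of the members was not tested. Neither blood nor lymphatic endothelial genes passed in any comparison. No skeletal muscle gene passed either, but arrays of 1 group differed widely in the mean of that list. It was 0.56, -1.93 and 0.93 in P1 back arrays 1, 5 and 6. In P5 back arrays 1, 2 and 3 it was -1.81, -1.67 and 1.21. The cartilage list mean was 0.80 in P5 back array 3, against -0.061 and 0.11 in P5 back arrays 1 and 2. Cartilage genes were high in P1 back arrays 1 and 6, with list means of 1.81 and 1.56, against -0.035 in P1 back array 5, and without these 2 arrays none of the 4 members called between the sites at P1 passed, in a fit where the spread of the 1 remaining P1 back array is taken from the other groups. Their differences were then between -1.52 and -0.62. In the same fit none of the 6 members called with age in back passed, at differences between -1.85 and -1.06.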

How the data were processed

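The authors hybridised amplified cDNA to Affymetrix MG430.2A arrays and normalised them by RMA in GeneSpring 13X. The deposited values are on a log2 scale, which is taken from RMA and not stated with them, and are centred per probe set: the median over the 12 arrays was 0 within 1e-06 for all 45101 probe sets. Centring leaves differences unchanged and removes levels, so the methods' exclusion of the lowest 20% of genes could not be repeated and no depth or signal over background can be given; the number of arrays limits the precision.

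After 64 control probe sets were left out, the 45037 others were fitted in limma 3.58.1 under R 4.3.3, by lmFit with eBayes moderation, with 4 group means over all arrays, with Benjamini-Hochberg adjustment over all of them and a threshold of 0.05. The fit was tested on simulated data. Genes in lists were means of their probe sets with 1 symbol. Symbols came from the platform annotation, in which 34945 probe sets have 1 symbol, 932 several and 9160 none, and all 54 member genes matched RefSeq by gene identifier. Promoter windows are RefSeq's, with build GRCm38.p6. Named genes were those passing in a comparison, the chemokine axes fixed in the plan, the 5 members of widest range and up to 4 genes of a list. The members and all lists were chosen with earlier results of these data known. Alternatives covered array weights, probe set choice, the methods' t-test, the arrays in the fit, a replicate block and arrays left out.

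Numbers were not taken as pairs, because the labels do not say that a number marks a mouse. Deviations of same-numbered arrays of a tail and a back group correlated at 0.23 and 0.0093 for the 2 shared numbers at P1, and at 0.21 and -0.053 at P5. Arrays of unlike number were not correlated for comparison, so these values cannot decide whether numbers mark pairs.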

Additional observations from a re-analysis of the deposited data

Results flagged for a closer look

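Cxcl16 was picked out by the test of the interaction between site and age, which asks whether the tail minus back difference is the same at P5 and P1. On 1449195_s_at the interaction was 1.70 (log2, adjusted p = 0.017, limma), from 1.09 at P5 and -0.61 at P1, and on the second probe set, 1418718_at, it was 1.04 (adjusted p = 0.11). At P5 the site difference was positive in 3 of 3 tail arrays against every back array. No group had enough arrays for a test of single outlying arrays.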

How the results depend on the processing

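Of 1187 refits of named members, 1024 kept their direction and side of the threshold, 117 lost a call, 42 gained one and 4 changed sign. The sign changes came when probe sets were averaged to genes: Cxcl12 (1417574_at) became 0.022 between the sites at P1, Ackr4 (1437668_at and 1437669_x_at) 0.26 between the sites at P5, and the Ackr4 interaction (1426139_a_at) -0.041. Averaging left 4 member genes called with age in tail, where the fit by probe set called 6 genes. Array weights, which weigh P5 tail 2 at 0.185, gave 21 calls between the sites at P1, 1 with age in tail and 17 in back. Without probe sets whose suffix marks shared sequence, 2 calls were left between the sites at P5, 4 with age in tail and 0 in the interaction. With the arrays of the 2 groups alone there were 9 calls between the sites at P1, 1 with age in tail and 11 in back. The methods' t-test passed 11 members between the sites at P5, 20 at P1, 14 with age in tail and 20 in back before adjustment, and 0 in each after Benjamini-Hochberg adjustment. Without P1 back arrays 1 and 6 there were 0 calls between the sites at P1, 4 with age in tail, 0 in back and 0 in the interaction. The cause of these shifts was not tested.

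With the replicate number as a block the site comparison gave 4 calls at P5 and 0 at P1, and the interaction 0. Under the block both Cxcl14 probe sets lost their calls (adjusted p = 0.064 and 0.077 at P5, 0.063 for each at P1), as did Cxcl16 on 1449195_s_at at P5 (0.072) and Ccl7 (0.054) and Cxcl5 (0.18) at P1. The age comparisons have no such fit, as their groups share fewer than 2 numbers. Leaving out 1 array of the groups compared gave 4 to 8 calls between the sites at P5, 2 to 6 at P1 (2 without P1 tail 4 or P1 tail 6), 2 to 8 with age in tail (2 without P1 tail 4, 5 without P1 tail 5), 1 to 6 in back (1 without P1 back 5, 3 without P5 back 1, P5 back 2 or P1 back 6) and 0 to 3 in the interaction (0 without P5 back 2, P1 tail 6, P1 back 5 or P1 back 6, 3 without P5 tail 4). Chosen after seeing the data, leaving P5 tail 2 out of the shared spread gave 8 calls between the sites at P1 and 10 with age in back. Where an arm keeps 1 array, that array is assumed to vary like the other groups. With 3 arrays a group and centred values, members near background cannot be told from steady ones.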
